A study of Mus musculus with 2 samples.

Results

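The GIMAP genes encode GTPases of the immunity-associated protein family, and all 8 that were listed for this account, Gimap1, Gimap3, Gimap4, Gimap5, Gimap6, Gimap7, Gimap8 and Gimap9, were present in the expression matrix of 31053 genes. The cells were LSK cells, a fraction of mouse bone marrow that lacks lineage markers, displays Sca-1 and c-Kit, and holds hematopoietic stem cells (HSCs) and multipotent progenitors. They were profiled by CITE-seq, which reads the transcripts of each cell together with DNA-barcoded antibody tags, here against CD150 and CD48. CLCA3A1 was tagged indirectly, through its antibody, a PE/Cy7-labelled secondary antibody and a barcoded antibody against PE. 1 library came from old C57BL/6JRj females (22 to 28 months) and 1 from young ones (3 to 5 months), each with the pooled cells of 4 mice. No genotype or treatment distinguished the libraries. The cell barcodes ended in 1 or 2, and no label stated which suffix belonged to which age, so the cells are given as library 1 and library 2 and no age comparison was made.

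Of 4688 cells, 4068 had under 10% mitochondrial UMIs (unique molecular identifiers, which count captured transcripts) and over 1500 genes, 1524 in library 1 and 2544 in library 2. Library 1 held 27345371 UMIs with a median of 15023.5 per kept cell, and library 2 held 44021962 with a median of 14766.5. No barcode sequence was shared between the libraries. Levels are in CPM (UMIs of a gene per 1e6 UMIs of the class), summed over the cells of a class, and the 95% intervals are exact Poisson intervals for levels, exact binomial intervals for shares and exact conditional intervals for ratios. They cover counting error only, because cells of 1 library are not replicates and each library stands alone. No p-value is given for that reason.

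GIMAP proteins are guanine nucleotide-binding proteins that sit on intracellular membranes and are best known from lymphocytes, where they govern survival during development and in the periphery. Rodents that lack functional Gimap5 lose T cells, and Gimap1 is needed for mature B and T cells. The genes form a tandem cluster, so that neighbours share one stretch of chromatin.

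In GENCODE coordinates on GRCm38 the 8 genes lay on chromosome 6 within 123618 bases, from 48647234 to 48770851. The order was Gimap8, Gimap9, Gimap4, Gimap6, Gimap7, Gimap1, Gimap5 and Gimap3, with 6 genes on the plus strand and Gimap6 and Gimap3 on the minus strand. A readthrough gene, Gm28053, overlapped 3.48% of the exonic bases of Gimap7, 6.44% of those of Gimap1 and 3.69% of those of Gimap5, and held 1 UMI in the kept cells. The libraries read 53 bases near the 3′ end of transcripts. Among the 53-base words of the last 500 transcript bases, 42 of 900 in Gimap1 and 13 of 450 in Gimap3 also occurred in another gene, none was shared between members, and the other 6 members had no such word.

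The 250 bases before the RefSeq start sites of Gimap5, Gimap7 and Gimap9 are shown because these genes of the cluster followed the 3 different patterns described below. They are given 5′ to 3′ on the gene's strand from RefSeq GRCm38.p6, with the searched motif letters in capitals. Gimap5 is at chr6:48745947-48746196 (plus strand), Gimap7 at chr6:48718371-48718620 (plus strand) and Gimap9 at chr6:48675885-48676134 (plus strand).
Gimap5: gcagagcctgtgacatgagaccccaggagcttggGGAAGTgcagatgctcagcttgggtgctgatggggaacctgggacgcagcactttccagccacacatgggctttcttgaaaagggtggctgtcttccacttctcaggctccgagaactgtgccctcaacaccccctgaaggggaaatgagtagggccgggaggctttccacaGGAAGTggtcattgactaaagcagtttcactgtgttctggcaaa
Gimap7: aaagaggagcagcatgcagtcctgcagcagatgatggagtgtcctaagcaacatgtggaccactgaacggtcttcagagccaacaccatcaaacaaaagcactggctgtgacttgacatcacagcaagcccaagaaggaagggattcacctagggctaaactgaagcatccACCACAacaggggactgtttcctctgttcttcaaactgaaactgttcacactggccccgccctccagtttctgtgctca
Gimap9: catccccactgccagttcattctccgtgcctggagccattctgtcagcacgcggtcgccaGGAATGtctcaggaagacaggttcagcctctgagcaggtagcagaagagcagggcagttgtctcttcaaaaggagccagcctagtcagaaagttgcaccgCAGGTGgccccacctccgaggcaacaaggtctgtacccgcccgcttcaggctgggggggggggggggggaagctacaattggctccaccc
The Gimap5 window held the ETS letters GGAAGT at positions -216 and -44 from the start site. The Gimap7 window held the RUNX letters TGTGGT at -79, read on the opposite strand as ACCACA. In the Gimap9 window stood the TEAD letters GGAATG at -190 and the E-box CAGGTG at -90, and it was richest in CpG among the members (8 CpG, 61.2% GC).

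The same search on both strands was made for all 8 members, which matched 9 RefSeq windows since Gimap8 has 2 start sites. GGAAGT was also found in Gimap6 at -25 and occurs in 19.7% of the 32851 mouse promoter windows of this length. TGTGGT was also found in Gimap1 at -95 and Gimap4 at -145, against 14.0% of all windows. GGAATG was also found in Gimap1 at -106 and Gimap4 at -183, against 12.6% of all windows, and CAGGTG stood in 17.2% of them. The GATA letters AGATAA (9.99% of windows) and the E-box CAGCTG (13.0%) were in no member window, and Gimap3 and Gimap8 held none of the searched letters. No 2 motifs overlapped in the windows that are shown. A match describes letters only.

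All 8 members were detected. Together they gave 40334 UMIs in the kept cells, 72.5% of them from Gimap1 and Gimap6, and 98.7% of kept cells held at least 1 member UMI. The summed level was 571 CPM in library 1 and 562 CPM in library 2. The members stood at very different heights in the 3′ counts, which are not divided by transcript length and therefore rank UMI yield rather than transcript number. Gimap1 had 219 CPM in library 1 and 201 in library 2, Gimap6 213 and 195, Gimap5 57.2 and 79.9, and Gimap9 52.3 and 53.3. Gimap8 stood at 15.3 and 17.7 CPM, Gimap7 at 9.58 and 4.75, Gimap3 at 2.41 and 4.57, and Gimap4 at 2.16 and 4.95. The last 3 therefore rest on few molecules, 267 UMIs for Gimap3, 277 for Gimap4 and 471 for Gimap7.

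The cells were split by their tags into 4 gates, with CD150 cut at the 75th and CD48 at the 25th percentile of each library. CD150-high CD48-low is the classical SLAM phenotype of HSCs, and CD150-low CD48-high holds most multipotent progenitors. The gates held 172 and 383 CD150-high CD48-low cells in libraries 1 and 2, 204 and 250 CD150-low CD48-low cells, 209 and 241 CD150-high CD48-high cells, and 912 and 1615 CD150-low CD48-high cells. 82 kept cells had no tags. The transcripts followed the tags. Slamf1, which encodes CD150, stood at 16.9 and 64.2 CPM in CD150-high CD48-low cells of libraries 1 and 2 and at 0.397 and 2.53 CPM in CD150-low CD48-high cells, and Cd48 at 0.888 and 1.52 CPM against 97.7 and 134 CPM. Kit was detected in every gate of both libraries, and Ly6a, a Sca-1 gene, stood at 324 and 534 CPM in the first gate and 202 and 311 CPM in the last.

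Summed over the 8 genes, the GIMAP level was highest in the CD48-low gates. It was 818 CPM (781–857) in library 1 and 872 CPM (847–898) in library 2 in CD150-high CD48-low cells, and 493 CPM (482–503) and 454 CPM (446–461) in CD150-low CD48-high cells. CD150-low CD48-low cells lay near the first gate at 825 and 786 CPM, and CD150-high CD48-high cells lay in between at 591 and 756 CPM. The ratio of the first gate to the last was 1.66 (1.58–1.75) in library 1 and 1.92 (1.86–1.99) in library 2. 3 patterns made up this sum. Gimap1, Gimap3, Gimap4, Gimap5, Gimap6 and Gimap8 were higher in CD150-high CD48-low cells in both libraries, Gimap7 was lower in both, and Gimap9 had nearly the same level throughout.

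**Figure D1:**
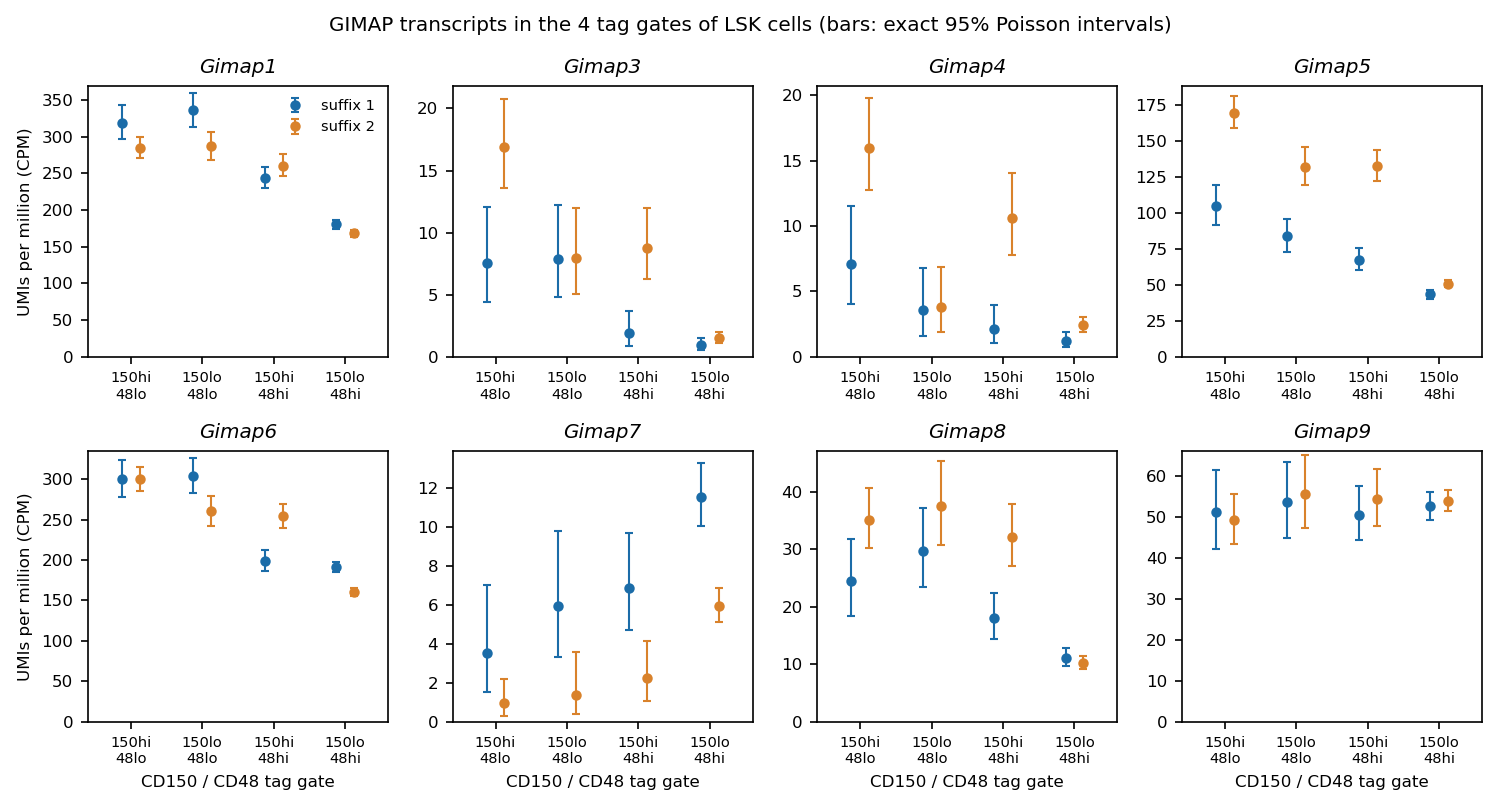
Level of each GIMAP gene (CPM, linear axis from 0, 1 panel a gene) in the 4 tag gates, as points for library 1 (suffix 1) and library 2 (suffix 2) with exact Poisson 95% intervals. Gimap1, Gimap3, Gimap4, Gimap5, Gimap6 and Gimap8 are lower in CD150-low CD48-high than in CD150-high CD48-low cells, Gimap7 is higher, and Gimap9 stays between 49.2 and 55.6 CPM.

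Gimap5, whose loss in mice is known for lymphopenia and for defects of HSCs, combined a large difference with ample counts. It stood at 105 CPM (91.8–119) in library 1 and 170 CPM (159–181) in library 2 in CD150-high CD48-low cells. In CD150-low CD48-high cells it stood at 43.5 CPM (40.5–46.7) and 50.8 CPM (48.3–53.4). The ratio was 2.41 (2.07–2.79) in library 1 and 3.34 (3.07–3.63) in library 2, and the levels of the 2 gates did not overlap between libraries. CD150-low CD48-low cells had 83.9 and 132 CPM and CD150-high CD48-high cells 67.5 and 133 CPM, so that the first gate was still above the second by 1.25 (1.03–1.51) and 1.28 (1.14–1.45). After each cell was thinned to 9000 UMIs, Gimap5 was found in 55.8% and 72.5% of CD150-high CD48-low cells and in 29.2% and 38.2% of CD150-low CD48-high cells of the 2 libraries. Before thinning the shares were 66.3% and 80.4% against 50.2% and 54.1%. Thinning left out 16 and 20 shallower cells of the first gate and 33 and 59 of the last.

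Gimap3, the close relative of Gimap5, and Gimap4, which has been linked to T cell apoptosis, had the steepest ratios on far fewer molecules. Gimap3 gave 17 UMIs (7.55 CPM, 4.4–12.1) in library 1 and 89 UMIs (16.9 CPM, 13.6–20.8) in library 2 in CD150-high CD48-low cells. In CD150-low CD48-high cells it gave 17 UMIs (0.964 CPM, 0.561–1.54) and 46 UMIs (1.49 CPM, 1.09–1.99). The ratio was 7.83 (3.76–16.3) and 11.3 (7.85–16.5), and the Gimap3 ratio ran from 5.14 to 24.5 over the other settings run. Gimap4 had 7.10 and 15.9 CPM in the first gate and 1.25 and 2.43 CPM in the last, a ratio of 5.70 (2.8–11.4) and 6.56 (4.75–9.08). The Gimap4 ratio of library 2 was 10.8 (7.44–15.9) without 10 immunoglobulin-rich cells described below. Under a stricter filter of over 2500 genes and under 5% mitochondrial UMIs, which left 57 and 238 cells in these gates, the Gimap4 ratio over both libraries was 1.97 (0.714–4.74). Both genes were found in few cells even where they were highest. In thinned CD150-high CD48-low cells Gimap3 was found in 8.97% of library 1 and 9.37% of library 2, and Gimap4 in 5.77% and 12.9%, against 9.30% and 15.1% for Gimap3 and 8.14% and 17% for Gimap4 before thinning. In the CD150-low CD48-low gate Gimap3 had 7.92 and 7.99 CPM and Gimap4 had 3.56 and 3.82 CPM. The ratio of the first gate to this one was 0.954 and 2.12 for Gimap3, and 1.99 and 4.17 for Gimap4. Gimap3 thus kept its level in library 1 only, and the intervals of the 2 genes in this gate overlapped in both libraries.

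Gimap8, which carries several GTPase domains in tandem, stood at 24.4 CPM (18.4–31.8) and 35.1 CPM (30.2–40.6) in CD150-high CD48-low cells of libraries 1 and 2. It stood at 11.1 CPM (9.61–12.8) and 10.3 CPM (9.18–11.5) in CD150-low CD48-high cells, a ratio of 2.2 (1.6–2.98) and 3.42 (2.84–4.11). Over both libraries the Gimap8 ratio was 3.02 (2.58–3.52), and under the stricter filter it was 6.22 (3.45–11.2). In CD150-low CD48-low cells it had 29.7 and 37.5 CPM, with ratios of the first to this gate of 0.823 (0.570–1.18) and 0.936 (0.735–1.2) whose intervals spanned 1.

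Gimap1 and Gimap6, which yielded most of the UMIs, differed less between the gates. Gimap6 is known to bind GABARAPL2, a protein of autophagy. Gimap1 had 319 CPM (296–343) and 285 CPM (271–300) in CD150-high CD48-low cells against 180 CPM (174–187) and 169 CPM (164–173) in CD150-low CD48-high cells, a ratio of 1.77 (1.63–1.92) and 1.69 (1.59–1.79). Gimap6 had 301 and 300 CPM against 191 and 160 CPM, a ratio of 1.57 (1.45–1.71) and 1.87 (1.77–1.98). Both were also high in CD150-low CD48-low cells, Gimap1 at 336 and 287 CPM and Gimap6 at 304 and 260 CPM.

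Gimap7, known to stimulate the GTPase activity of other family members, ran the other way. It gave 8 UMIs (3.55 CPM, 1.53–7) and 5 UMIs (0.949 CPM, 0.308–2.22) in CD150-high CD48-low cells of libraries 1 and 2. In CD150-low CD48-high cells it gave 204 UMIs (11.6 CPM, 10.0–13.3) and 183 UMIs (5.93 CPM, 5.10–6.86). The ratio was 0.307 (0.131–0.617) and 0.160 (0.0513–0.380), and within each library the level was higher in each step from CD150-high CD48-low (3.55 and 0.949 CPM) over CD150-low CD48-low (5.94 and 1.39 CPM) and CD150-high CD48-high (6.88 and 2.25 CPM) to CD150-low CD48-high. The intervals of neighbouring gates among the first 3 overlapped.

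Gimap9 stood between 49.2 and 55.6 CPM in all 8 combinations of gate and library. In CD150-high CD48-low cells it had 51.1 CPM (42.2–61.3) and 49.2 CPM (43.4–55.5), and in CD150-low CD48-high cells 52.6 CPM (49.2–56.0) and 53.9 CPM (51.3–56.5). The ratio was 0.972 (0.793–1.18) in library 1 and 0.913 (0.798–1.04) in library 2. Neither interval reached a difference of 1.5-fold. Its neighbours in the cluster, Gimap8 and Gimap4, are both among the 6 that were higher in CD150-high CD48-low cells.

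**Figure D2:**
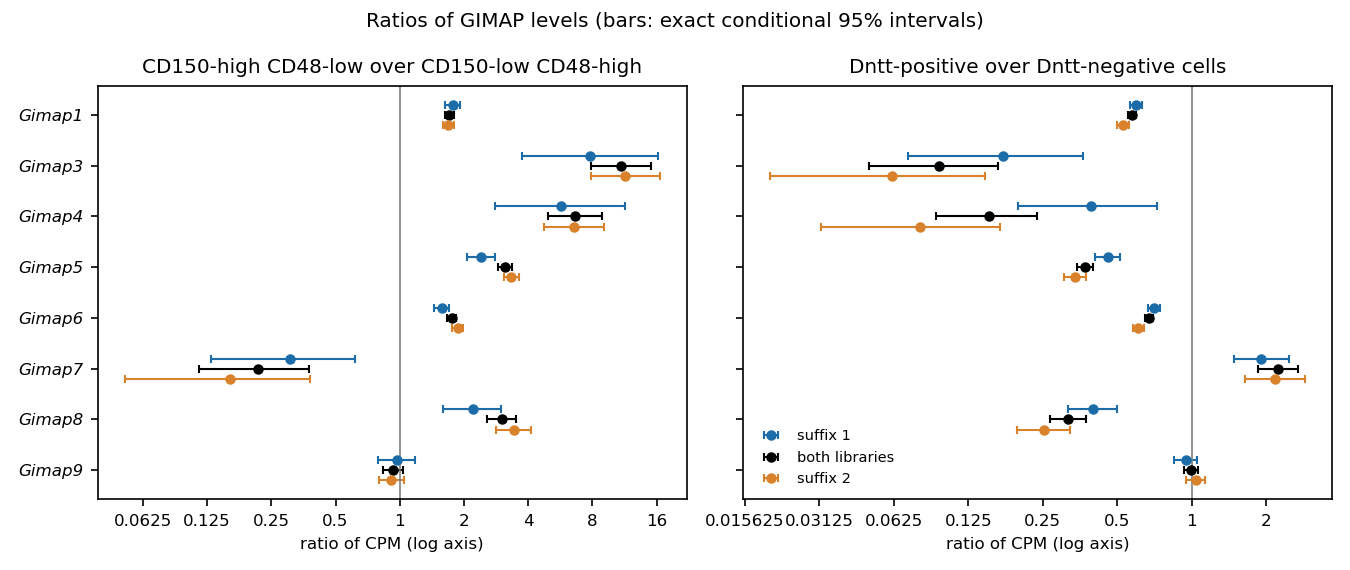
Ratio of the CPM in CD150-high CD48-low over CD150-low CD48-high cells and in Dntt-positive over Dntt-negative cells (log axis) for each GIMAP gene in library 1 (suffix 1), library 2 (suffix 2) and both, with exact conditional 95% intervals. The gate ratio is above 1 for 6 genes and below 1 for Gimap7, the Dntt ratio is below 1 for those 6 and above 1 for Gimap7, and the Gimap9 intervals span 1 in both.

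For a comparison with all genes, a gene was called higher or lower where log2(CPM + 10) differed by at least 1 in the same direction in both libraries, among the 12243 genes with at least 50 UMIs over the cells compared. By this rule 0.98% of genes were higher in CD150-high CD48-low than in CD150-low CD48-high cells and 1.57% were lower. Of the 8 members only Gimap5 was called higher, with differences of 1.10 and 1.56, and none was called lower. The added 10 CPM understates low genes. With 1 CPM added, Gimap3, Gimap4, Gimap5 and Gimap8 were called higher against 4.44% of all genes, and Gimap7 was called lower against 4.53%. With a limit of 1.5-fold and 10 CPM added, the 6 members above were called higher against 3.48% of all genes. The median log2 difference was 0.79 over the members and -0.01 over all genes tested.

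Depth and cell cycle moved with the gates. Median UMIs per cell were 13334 in CD150-high CD48-low cells and 16343 in CD150-low CD48-high cells, and Mki67, a proliferation marker, stood at 37.7 and 2.66 CPM against 206 and 175 CPM in libraries 1 and 2. All 6 cycling genes of the list (Mki67, Top2a, Ube2c, Birc5, Cdk1, Ccnb1) were called lower in the first gate. Within CD150-low CD48-high cells alone, the summed GIMAP level was 736 CPM in the cells with fewest UMIs, 526 CPM in those of middle depth and 330 CPM in those with most, as 3 bins of equal size. The ratio of the deepest to the shallowest bin was 0.528 (0.502–0.556) in library 1 and 0.403 (0.387–0.420) in library 2. It was 0.254 (0.204–0.315) for Gimap8 but 0.848 (0.652–1.11) for Gimap7 and 0.789 (0.714–0.873) for Gimap9, over both libraries.

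The summed gate difference was smaller where these measures were held closer. Among Mki67-negative cells the summed ratio was 1.46 (1.38–1.54) in library 1 and 1.53 (1.48–1.59) in library 2. Gimap3 then had ratios of 6.00 and 7.01, Gimap4 6.09 and 6.73, Gimap5 2.09 and 2.47, Gimap8 1.69 and 2.39, and Gimap7 0.298 and 0.155. Gimap9 had 0.891 (0.716–1.10) and 0.849 (0.737–0.976), below 1 in library 2. Among cells of 10000 to 20000 UMIs, a window chosen after the values were seen, the ratio over both libraries was 1.41 for the sum, 10.3 for Gimap3, 5.46 for Gimap4, 2.30 for Gimap5, 2.10 for Gimap8, 1.31 for Gimap1, 1.32 for Gimap6, 0.19 for Gimap7 and 0.82 for Gimap9. All 6 members kept a ratio above 1 and Gimap7 one below 1 in both restrictions. Gimap5 no longer passed the 2-fold call in either.

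The members were also followed along the CD48 tag itself. Over 4 equal bins of CD48 tag values, the summed level in the highest bin had a ratio to the lowest of 0.476 (0.455–0.497) in library 1 and 0.369 (0.355–0.383) in library 2. Gimap3 had 0.0532 and 0.0328, Gimap4 0.197 and 0.204, Gimap8 0.242 and 0.122, and Gimap5 0.354 and 0.182. The 37 Gimap4 UMIs of the highest bin of library 2 lay in 1.93% of its cells. After thinning, Gimap4 was found in 4.29% and 9.56% of cells of the lowest bin and in 1.88% and 0.646% of the highest. Gimap7 had 2.31 (1.46–3.8) and 5.71 (2.89–12.9), and Gimap9 0.969 (0.830–1.13) and 1.02 (0.904–1.15). Median UMIs per cell were 12523 in the lowest bin and 24294 in the highest.

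Lymphocytes, the cells best known for GIMAP transcripts, were sought by their own genes. Over the 10 genes of the T cell list the summed level was 4.88 and 2.47 CPM in CD150-high CD48-low cells and 6.01 and 2.98 CPM in CD150-low CD48-high cells of libraries 1 and 2, with Cd3e at 0 throughout. Among B cell genes, Pax5 was at 0 throughout, while Cd79b was found in 1993 cells and Cd79a in 25. The 5 NK cell genes summed to 17.8 and 71.0 CPM against 131 and 205 CPM, with Gzma at 0, and they did not move together. Nkg7 had log2 differences of -2.42 and -3.96 between the gates, Klrd1 -0.13 and -0.18, and Klrb1c 0.08 and 2.78. The 5 plasma cell genes summed to 111 and 241 CPM against 938 and 5876 CPM. Igkc (-5.45 and -5.76 on the log2 scale), Ighm and Jchain were called lower, Sdc1 had -1.21 and -0.72 with no call, and Xbp1 had 0.45 and 0.66, on the other side of 0. The immunoglobulin transcript Igkc was found in 47.2% of thinned cells of library 2 against 1.96% in library 1 (65.2% and 3.22% before thinning). In library 2 the thinned share was 47.6% in Gata1-positive cells, an erythroid and megakaryocyte class that should lack it, against 44.6% in CD150-high CD48-low and 47.5% in CD150-low CD48-high cells. The shares of cells with an Igkc UMI thus lay within a few percentage points of each other, while the Igkc level differed between the gates, and the source of these UMIs was not tested.

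12 kept cells had over 1% immunoglobulin UMIs, and 11 of them lay in the CD150-low CD48-high gate. These 12 cells held 32 of the 277 Gimap4 UMIs (11.6%), a level of 76.8 CPM (52.5–108), and 31 of the 97 Gimap4 UMIs of that gate. They held 0.584% of all UMIs of kept cells. Of the Gimap7 UMIs they held 1.27%, on 6 UMIs that all lay in library 2, and of the Gimap9 UMIs 0.74%. Their share of the UMIs of the other 5 members ran from 0.295% for Gimap5 to 0.375% for Gimap3. Without these 12 cells, an exclusion chosen after the values were seen, the gate ratio of Gimap4 over both libraries was 9.69 (7.03–13.4) in place of 6.65 (4.98–8.88), and that of the sum stayed at 1.83.

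Dntt-positive cells, those with at least 1 UMI of the terminal transferase gene of early lymphoid progenitors, numbered 556 in library 1 and 572 in library 2 against 968 and 1972 without. They had a median of 20059 UMIs against 13953. The summed GIMAP level was lower in them, at 440 CPM (428–452) and 360 CPM (350–371) against 675 CPM (662–689) and 645 CPM (636–654), a ratio of 0.651 (0.630–0.673) and 0.558 (0.541–0.577). Dntt-positive cells made up 36.5% of library 1 and 22.5% of library 2, so that values pooled over the libraries mix these shares. Each library is therefore given on its own here.

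Gimap7 alone was higher in Dntt-positive cells in both libraries. It stood at 13.0 CPM (11.1–15.2) against 6.84 CPM (5.59–8.28) in library 1 and at 7.67 CPM (6.24–9.34) against 3.53 CPM (2.91–4.26) in library 2. The ratio was 1.90 (1.48–2.46) and 2.17 (1.64–2.87). After thinning it was found in 9.32% and 7.99% of Dntt-positive cells against 5.90% and 2.73% of Dntt-negative cells (20.5% and 14.3% against 9.30% and 4.87% before). In cells with over 10 Dntt UMIs it reached 19.1 CPM (15.4–23.5) and 9.57 CPM (6.87–13.0). Cells with 4 to 10 Dntt UMIs had 10.0 CPM (6.65–14.5) and 4.92 CPM (2.69–8.26), and those with 1 to 3 had 8.52 CPM (6.06–11.6) and 7.62 CPM (5.54–10.2). The top bin lay above the intervals of the other bins in library 1 only, and in library 2 the intervals overlapped. From the lowest to the highest bin, thinned shares were 8.04%, 9.30% and 10.8% in library 1, with overlapping intervals. In library 2 they were 8.03%, 7.94% and 7.98%.

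The 6 members that were high in CD150-high CD48-low cells were all lower in Dntt-positive cells. Gimap5 had 34.5 and 33.5 CPM against 75.3 and 99.2 CPM, a ratio of 0.457 (0.408–0.512) in library 1 and 0.338 (0.304–0.373) in library 2. Gimap8 had 8.32 and 5.74 CPM against 20.9 and 22.6 CPM, a ratio of 0.398 (0.315–0.500) and 0.254 (0.197–0.322). Gimap1 had ratios of 0.595 and 0.529, and Gimap6, the nearest to 1 of them, 0.705 (0.668–0.744) and 0.609 (0.577–0.642). Gimap3 gave 8 and 5 UMIs in Dntt-positive cells and Gimap4 14 and 7, with ratios of 0.173 and 0.0615 for Gimap3 and 0.390 and 0.0800 for Gimap4. Gimap9 had nearly the same level in both, with 50.7 and 54.6 CPM against 53.6 and 52.8 CPM and ratios of 0.945 (0.850–1.05) and 1.04 (0.947–1.13). Its one departure was 41.1 CPM in library 1 cells with 4 to 10 Dntt UMIs.

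**Figure D3:**
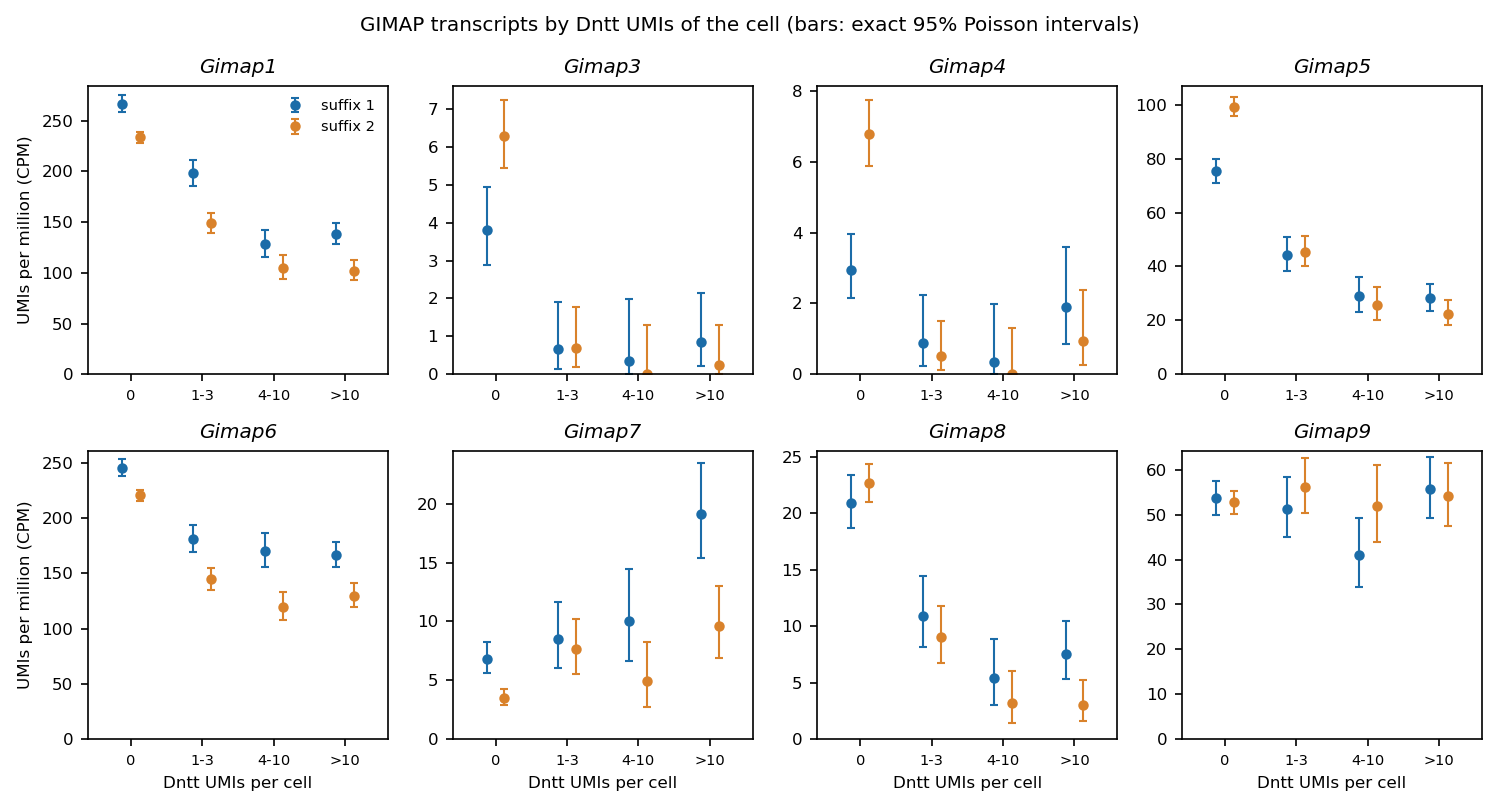
GIMAP levels (CPM, linear axis from 0, 1 panel a gene) in cells with 0, 1 to 3, 4 to 10 and over 10 Dntt UMIs, for library 1 (suffix 1) and library 2 (suffix 2) with exact Poisson 95% intervals. Gimap7 ends at 19.1 and 9.57 CPM in the cells with most Dntt, Gimap1 at 138 and 102 CPM, and Gimap9 at 55.7 and 54.2 CPM.

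Most Dntt-positive cells lay in the CD150-low CD48-high gate, 499 of 556 and 539 of 572, so the comparison was repeated inside that gate. Gimap7 kept a ratio of 1.67 (1.22–2.31) in library 1 and 1.61 (1.19–2.18) in library 2. The sum had 0.703 (0.674–0.733) and 0.666 (0.642–0.690), Gimap5 0.533 (0.461–0.616) and 0.503 (0.447–0.564), and Gimap9 0.945 (0.827–1.08) and 1.03 (0.930–1.13). Gimap4 had 0.630 (0.248–1.60) and 0.109 (0.0344–0.267), on 11 and 5 UMIs in Dntt-positive cells, and these intervals overlapped. In this gate 10 immunoglobulin-rich cells of library 2 held 30 Gimap4 UMIs, and without them the library 2 ratio was 0.108 (0.0214–0.337).

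Against all 12620 genes tested in this comparison, 0.206% were called at least 2-fold higher in Dntt-positive cells of both libraries with 10 CPM added and 0.325% at least 2-fold lower, and no member was called in either direction. With 1 CPM added 0.848% of genes were called higher, no member among them, and 2.58% lower, among them Gimap3, Gimap5 and Gimap8. At 1.5-fold with 10 CPM added, 1.65% of genes were called lower, among them Gimap1, Gimap5 and Gimap8. The median log2 difference was -0.55 over the members and -0.03 over all genes tested.

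The other classes of LSK cells were set beside these. Mpo-high cells, the 10% of each library with most Mpo and hence myeloid-primed, had Gimap8 at a ratio of 0.280 (0.164–0.449) and 0.0556 (0.0239–0.110) to the other cells of libraries 1 and 2. Gimap5 there had 0.445 and 0.189, Gimap1 0.516 and 0.338 and Gimap6 0.561 and 0.360. Gimap7 had 0.601 (0.374–0.923) and 0.863 (0.562–1.28), and Gimap9 1.09 (0.94–1.26) and 0.898 (0.798–1.01), so the Gimap9 interval spanned 1 in myeloid-primed as in Dntt-positive cells.

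The 86 Gata1-positive cells, which express an erythroid and megakaryocyte transcription factor, had a GIMAP sum of 239 CPM (201–282) and 305 CPM (278–334), the lowest of the classes named here in library 1, while Mpo-high cells were lowest in library 2 (343 and 226 CPM). No UMI of Gimap3 or Gimap4 was found in them, a level at least 2.72-fold lower for Gimap3 and at least 2.82-fold lower for Gimap4 than in Gata1-negative cells, with a floor of 3 counts over the group. Gimap7 gave 1 UMI, a ratio of 0.07 with an interval of 0.00176 to 0.39. Gimap9 stood at 27.4 CPM (15.6–44.4) and 42.5 CPM (32.8–54.1), with a ratio of 0.517 (0.295–0.843) in library 1 and 0.791 (0.608–1.01) in library 2. After thinning, 14.3% of Gata1-positive cells held no member UMI, against 0.39% of CD150-high CD48-low and 6.57% of CD150-low CD48-high cells. Shares of cells with a UMI can be read against this class. Gimap5 was found in 28.6% of thinned Gata1-positive cells (median depth before thinning 22965 UMIs), Gimap9 in 29.8%, Gimap8 in 5.95% and Gimap7 in 0 of 84, where a limit of 3 cells allows up to 3.57% of cells with a UMI. Before thinning the shares were 48.8%, 60.5%, 14.0% and 1.16%.

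**Figure D4:**
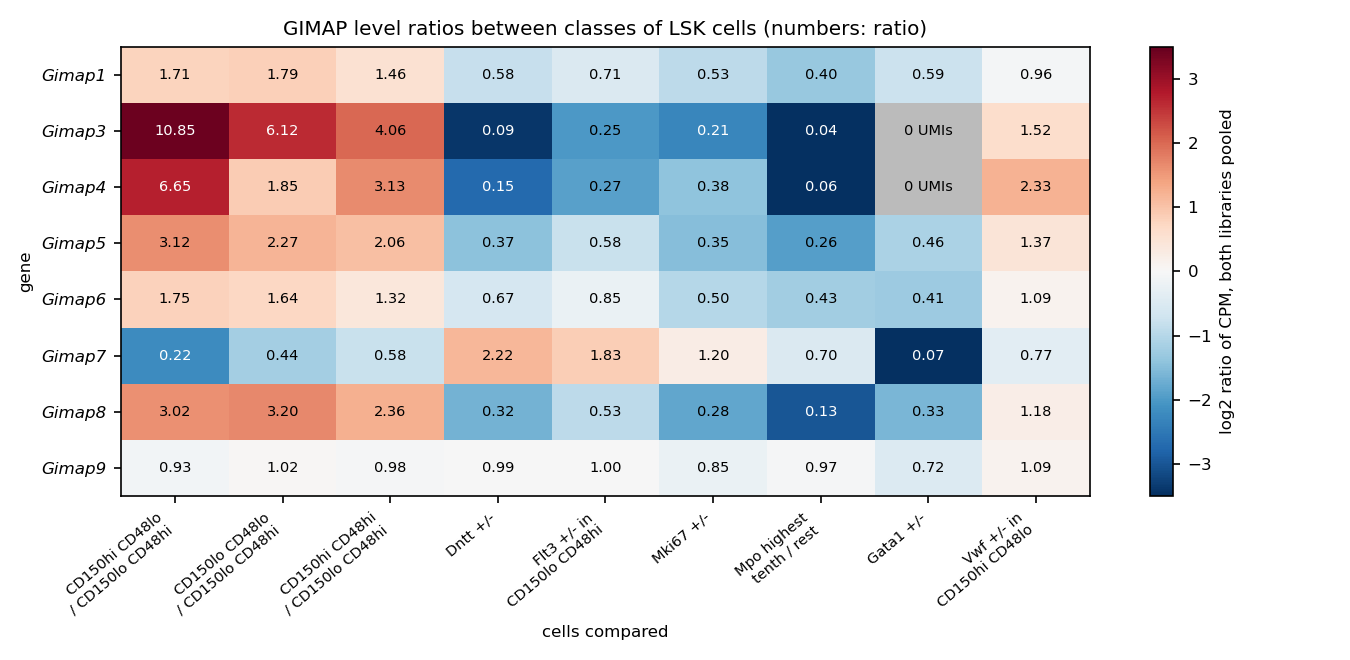
Heat map of the ratio of CPM between classes of LSK cells with both libraries pooled, genes in lines and comparisons in columns, coloured by log2 ratio with the ratio printed and grey where no UMI was found. Gimap9 lies between 0.93 and 1.02 in the gate, Dntt, Flt3 and Mpo columns, and at 0.85 for Mki67, 0.72 for Gata1 and 1.09 for Vwf. Gimap7 is at 2.22 in Dntt-positive and 1.83 in Flt3-positive cells, where pooling mixes the libraries' shares.

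Mki67-positive cells had a summed ratio to Mki67-negative cells of 0.583 (0.562–0.604) and 0.473 (0.458–0.488), and a median of 27068 UMIs against 13800. Gimap7 was the one member with ratios above 1, at 1.11 (0.855–1.43) and 1.26 (0.944–1.68), with intervals that spanned 1. Within the CD150-low CD48-high gate, cells with a UMI of Flt3, the receptor that marks lymphoid-primed progenitors, had 0.709 and 0.671 of the Gimap1 level of cells without. There Gimap7 had 1.13 (0.679–2.02) in library 1, where 103 cells lacked Flt3, and 1.76 (1.2–2.63) in library 2. Gimap9 had 1.11 (0.875–1.43) and 0.982 (0.883–1.09).

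Inside the CD150-high CD48-low gate further classes were compared. Vwf-positive cells, the platelet-biased HSC class, were 37 of 172 in library 1 and 284 of 383 in library 2. Their summed GIMAP ratio to Vwf-negative cells was 0.963 (0.857–1.08) and 1.15 (1.07–1.24). Gimap4 had 1.27 (0.299–4.2) and 2.18 (1.12–4.73), and Gimap5 1.33 (0.978–1.79) and 1.08 (0.915–1.27). CLCA3A1 is the surface protein that the study traced in aged HSCs. Between cells above and below the median of its tag the summed ratio was 1.05 (0.954–1.15) and 0.921 (0.869–0.976). Gimap8 had 0.630 (0.352–1.11) and 0.689 (0.509–0.930), and Gimap3 lay on opposite sides of 1 in the libraries, at 2.10 (0.690–7.62) and 0.462 (0.289–0.727).

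The libraries differed in single members more than in the sum. In CD150-high CD48-low cells library 2 exceeded library 1 by 1.07 (1.01–1.13) for the sum, 1.62 (1.40–1.88) for Gimap5, 2.24 (1.32–4.01) for Gimap3, 2.25 (1.31–4.11) for Gimap4 and 1.44 (1.06–1.98) for Gimap8. Gimap1 had 0.892 (0.816–0.976) and Gimap6 0.998 (0.912–1.09). The share of thinned cells with Gimap3 was nearly the same in this gate, 8.97% in library 1 and 9.37% in library 2. For Gimap4 it was 5.77% and 12.9%. In library 2, 4 Mki67-positive cells held 10 of the 89 Gimap3 UMIs of the gate, and the intervals do not cover such clumping. The Gimap5 ratio was above 1 in every gate, at 1.57 (1.33–1.87) in CD150-low CD48-low, 1.97 (1.71–2.26) in CD150-high CD48-high and 1.17 (1.07–1.27) in CD150-low CD48-high cells. In Dntt-positive cells it was 0.972 (0.848–1.11).

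Gimap7 was lower in library 2 in every gate, with ratios of 0.267 (0.0688–0.927), 0.234 (0.0565–0.735), 0.327 (0.143–0.682) and 0.513 (0.418–0.629) in the order given above, and of 0.589 (0.454–0.762) in Dntt-positive cells. Gimap9 had ratios of 0.963 (0.770–1.21), 1.04 (0.822–1.32), 1.07 (0.893–1.29) and 1.02 (0.945–1.11) in the 4 gates, all with intervals that spanned 1. The gates were cut at percentiles within each library, so cells of one gate can differ in kind between the libraries. In CD150-high CD48-low, 37 of 172 cells of library 1 and 284 of 383 of library 2 were Vwf-positive. With 1 library of each, animals, sort, capture, gate composition and age cannot be told apart in any of these ratios.

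**Figure D5:**
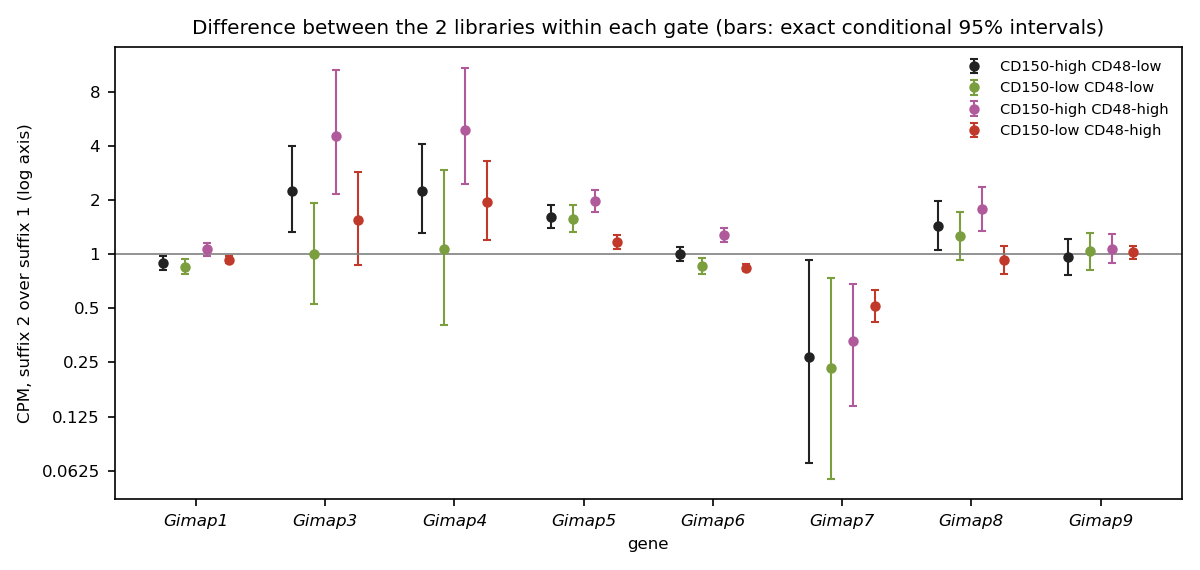
Ratio of CPM in library 2 (suffix 2) over library 1 (suffix 1) on a log axis, for each GIMAP gene in the 4 tag gates, with exact conditional 95% intervals that cover counting error only. Gimap5 lies above 1 and Gimap7 below 1 in all 4 gates, while the Gimap9 intervals all span 1.

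Members were also counted within single cells, each thinned to 9000 UMIs. CD150-high CD48-low cells held a mean of 3.12 and 3.29 of the 8 members in libraries 1 and 2, and CD150-low CD48-high cells 2.41 and 2.39. At least 5 members were found in 8.97% and 12.9% of the former and in 2.73% and 3.79% of the latter. Among 3770 thinned cells with tags, Gimap1 and Gimap6 were found together in 2457 cells against 2333 by the product of their shares, taken within each gate and library and then summed. The Pearson r of their counts was 0.31 over all these cells and 0.21 within the CD150-high CD48-low gate. Gimap5 and Gimap8 were found together in 329 cells against 267, with r of 0.16 over all cells and 0.10 within that gate. Over the 28 pairs the observed number over the product ran from 0.91 for Gimap3 and Gimap9 to 2.70 for Gimap4 and Gimap7, the latter on 9 cells against 3.33. The correlations over all cells take in differences between gates and libraries, and all of them are descriptions of sparse counts.

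Over the 8 combinations of gate and library, the genes whose log2(CPM + 10) ran most like that of each member were found among 6291 genes. Gimap5 was nearest to 2310001H17Rik, Gbp4 and Tspan4 (Pearson r of 0.997, 0.992 and 0.992), and its nearest relatives were Gimap3 (0.941) and Gimap8 (0.937). Gimap1 and Gimap6 were nearest to each other among the members (0.942), with Sirt2, Pqlc1 and Plxna4os1 (0.991, 0.990 and 0.990) nearest to Gimap1 and Ier2, Mettl27 and Efcc1 (0.984, 0.982 and 0.981) to Gimap6. Gimap3 ran nearest to Ctso, Thap3 and Rit1 (0.994, 0.983 and 0.979), Gimap4 to Avpi1, Riok3 and Pfkp (0.973, 0.971 and 0.968) and Gimap8 to Ogt, Pld3 and Hint2 (0.989, 0.985 and 0.980). Gimap7 ran nearest to Actr2, Tmem70 and Zfyve19 (0.986, 0.985 and 0.983) and had a negative correlation with each other member, down to -0.944 with Gimap5. Gimap9 ran nearest to Diablo, Utp15 and Fam204a (0.928, 0.918 and 0.906), but spanned 0.15 on the log2 scale over these groups, too little for a pattern to be read. Some of the named genes spanned little too, with 0.39 for Actr2, 0.37 for Tmem70, 0.22 for Zfyve19 and 0.26 for Riok3. The 8 points share 2 libraries and their depths, and the named genes were picked as the highest of 6291, so a high r alone says little.

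A noncoding transcript beside Gimap5, 4833403J16Rik, which is no member and was looked at after its values were seen, had a gate ratio of 2.79 (1.86–4.09) and 2.76 (2.2–3.44) and a Dntt ratio of 0.422 (0.312–0.565) and 0.313 (0.239–0.405).

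Genes that have been linked to GIMAP function were listed as well. Of 11 tested (the BCL2 family genes Bcl2, Bcl2l1, Mcl1, Bax, Bak1 and Bcl2l11, the autophagy genes Gabarap, Gabarapl1 and Gabarapl2, and Gsk3b and Ctnnb1), none was called in either direction between the gates or between Dntt-positive and Dntt-negative cells. Of all genes tested, 0.98% were called higher and 1.57% lower between the gates, and 0.206% and 0.325% by Dntt, so a count of 0 of 11 does not set these genes apart. Gabarapl1 came nearest between the gates, with log2 differences of 0.66 and 1.15, and Bcl2 had differences of 0.78 and 0.56 in Dntt-positive cells.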

How the data were processed

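The deposited expression matrix holds whole UMI counts per gene and cell, which the authors made with Cell Ranger 3.1.0 on mm10 and aggregated over the 2 libraries with a depth normalization whose mode is not given in the sources used here. The authors counted the antibody tags separately, and the deposited tag values are on a log10 scale, with counts of 0 outside it. Cells without tags entered no gate. Values were summed per class with Python 3.11.15, numpy 2.4.6, scipy 1.17.1 and pandas 2.3.3, and the interval and call code was tested on simulated data. Thinning drew 9000 UMIs per cell and left out 243 cells. No doublet caller was run, and results were recomputed without the 5% of cells with most UMIs. The 2 labelled samples, old and young, could not be matched to the barcode suffixes, and the labels name no replicate libraries. Results used all members, lists and classes as listed, Mpo-high being the top 10%, and named genes were the members, the genes that check the gates, up to 4 genes of each marker list by level and the 3 most similar genes of each member. Other genes named were chosen after their values were seen. Likeness was ranked for members with at least 200 UMIs, among genes with a mean of at least 20 CPM over the combinations of gate and library. The members and lists were chosen with earlier results of these data known. Some listed marker genes are not reported here.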

Additional observations from a re-analysis of the deposited data

How the results depend on the processing

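The gate ratio of the summed GIMAP level over both libraries was 1.83, and the cause of its movement under other settings was not tested. It was 2.14 in the 372 cells passing a stricter filter (over 2500 genes, under 5% mitochondrial UMIs), 1.57 after thinning, 1.73 without the 5% of cells with most UMIs, 1.63 without cells with lymphocyte markers, 1.51 without Mki67-positive cells, 1.60 as a mean over cells, 1.66 in library 1 and 1.92 in library 2. It was 1.65 with CD150 cut at the 90th and CD48 at the 10th percentile, 2.01 with both at the median, 1.41 in cells of 10000 to 20000 UMIs and 2.11 without Gimap1 and Gimap6, the last 2 added after the data were seen. The Dntt ratio of the sum was 0.609, and it and the values below mix the libraries' shares of Dntt-positive cells unless 1 library is named. It was 0.679 under the stricter filter, 0.641 after thinning, 0.625 without the deepest cells, 0.646 without Mki67-positive cells, 0.651 in library 1, 0.558 in library 2, 0.593 and 0.592 with Dntt at 2 or 5 UMIs, 0.705 within CD150-low CD48-high cells, 0.715 in cells of 10000 to 20000 UMIs and 0.578 without Gimap1 and Gimap6.

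The count of members called at least 2-fold higher in CD150-high CD48-low cells was 1. It was 0 without cells with lymphocyte markers, without Mki67-positive cells and in cells of 10000 to 20000 UMIs (0.919%, 0.764% and 0.721% of all genes tested), 2 with both tags at the median (1.02%), 4 with 1 CPM added (4.44%) and 6 at 1.5-fold (3.48%). Under the stricter filter it was 1 of 6 members tested, Gimap8 in place of Gimap5 (1.28%). The count called lower in Dntt-positive cells was 0 and became 3 with 1 CPM added (2.58%) and 3 at 1.5-fold (1.65%). Each member but Gimap9 kept its side of 1 in both ratios under the alternatives run, while Gimap9 ran from 0.818 to 1.30 between the gates and from 0.945 to 1.15 by Dntt. Of the single member values, 124 moved by less than counting error and 92 by more. The Gimap4 gate ratio ran from 1.97 under the stricter filter to 9.69 without the 12 immunoglobulin-rich cells, that of Gimap3 from 5.14 to 24.5, and that of Gimap8 from 2.10 to 6.22. The planned lymphocyte rule left out 2004 cells, nearly all through Cd79b.

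No paired analysis was possible because each age has 1 library and no label pairs cells or samples.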

Other observations

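The 82 kept cells without tags belonged to no gate. Their summed GIMAP level was 905 CPM (27 cells of library 1) and 871 CPM (55 cells of library 2). Gimap5 had 125 CPM (86.6–175) and 151 CPM (122–186) there, and Gimap7 had 11.0 and 11.9 CPM on 3 and 7 UMIs.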
